A study of Mus musculus with 20 samples.

Results

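The CYP3A enzymes are cytochromes P450 of the endoplasmic reticulum, where they oxidise steroids, bile acids and many drugs with electrons passed on by P450 oxidoreductase. In mouse liver their genes are known targets of the nuclear receptors PXR (*Nr1i2*) and CAR (*Nr1i3*), and several of them, *Cyp3a41a*, *Cyp3a44* and *Cyp3a16* among them, are known for higher levels in females or in early life than in adult males. *Cyp3a11* is the main form of adult liver, *Cyp3a13* is also expressed in the intestine, and *Cyp3a25* is a further adult liver form. Benzo(a)pyrene (BaP), the mutagen given here, acts on transcription mainly through the aryl hydrocarbon receptor, of which CYP3A genes are not the classical targets.

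The family was represented by all probes whose RefSeq accession belongs to *Cyp3a11*, *Cyp3a13*, *Cyp3a16*, *Cyp3a25*, *Cyp3a41a* or *Cyp3a44*, which makes 6 of the 16535 genes that could be named on the array, measured by 8 probes. The family was chosen from measured values, because the 2 probes of *Cyp3a44* gave different changes with dose. The dose changes of *Cyp3a44* are therefore given as a description, without a test. All 8 probes passed the presence filter, and no probe was found for the relatives *Cyp3a41b*, *Cyp3a57* and *Cyp3a59* (0 probes). *Cyp3a25* and *Cyp3a44* had 2 probes each, called the brighter and the dimmer probe here by their mean intensity over both channels, and the other genes had 1 probe each. The brightness of a probe depends on its own hybridization, so levels of different probes or genes are not set against each other.

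RNA came from the liver of 20 male Muta™Mouse animals (transgenic mouse strain 40.6, a lambda-*lacZ* reporter strain), aged 25 weeks, in 4 groups of 5. The control group received olive oil (0 mg/kg/day) and the exposed groups received 25, 50 or 75 mg/kg/day BaP by oral gavage for 28 days, and tissue was taken 3 days after the last dose. Each liver RNA (Cyanine 5) was hybridized to 1 two-color array with a universal mouse reference RNA from 11 cell lines (Cyanine 3). All values below are log2 ratios of liver over reference, or differences between such ratios (log2 fold change), and replicates are numbered as in the labels, 1 to 5 for control, 6 to 10, 11 to 15 and 16 to 20 with rising dose.

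The source field of the labels names lungs and the tissue field liver. Of 8 hepatocyte markers with a probe all 8 were well above background on every array, while of 6 lung epithelium markers 4 passed the filter on low values and 0 were well above background on every array. *Sftpb* and *Sftpc* were not well above background on any array, and *Sftpd* at 75 mg/kg/day stood 1.19 above control on the log2 scale (limma adjusted p = 0.0688). The share of spots that the scanner software marked as well above background for liver was 51.9 to 67.5%. Control replicate 4 gave the highest share, and the other arrays did not exceed 62.4%. The 20 arrays lay on 6 slides, of which 3 held all 4 groups. Position 2 of a slide held every array of the 25 mg/kg/day group (5 of 5) and position 4 every array of the 75 mg/kg/day group (5 of 5), and position and dose cannot be told apart. In bulk RNA, fewer cells of a type and less RNA per cell cannot be told apart either.

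All 6 genes lie on chromosome 5 (GRCm38.p6), 5 of them in a cluster in which *Cyp3a16* (chr5:145436309-145469740), *Cyp3a41a* (chr5:145694049-145720136), *Cyp3a44* (chr5:145773983-145805891), *Cyp3a11* (chr5:145854607-145879854) and *Cyp3a25* (chr5:145977192-146009644) lie in this order on the minus strand. *Cyp3a13* stands apart from them (chr5:137892933-137925610). The exon or UTR in which each probe lies was not analysed here. Whether a probe also binds RNA of a related CYP3A gene could not be checked. Each value therefore belongs to a probe, and not surely to its named gene alone. The promoters of 5 members from RefSeq (GRCm38.p6, 250 bases before to 50 after the start site, minus strand) are shown because they let a reader see how close these copies are. *Cyp3a44*, *Cyp3a41a* and *Cyp3a16* are nearly identical, *Cyp3a11* is a more distant neighbour, and the ratios of *Cyp3a13* did not follow those of the other genes over the arrays. Capitals mark AGGTCA and AGTTCA on either strand, the core sequences to which nuclear receptors such as PXR and CAR are known to bind.
Cyp3a44, chr5:145805825-145806124: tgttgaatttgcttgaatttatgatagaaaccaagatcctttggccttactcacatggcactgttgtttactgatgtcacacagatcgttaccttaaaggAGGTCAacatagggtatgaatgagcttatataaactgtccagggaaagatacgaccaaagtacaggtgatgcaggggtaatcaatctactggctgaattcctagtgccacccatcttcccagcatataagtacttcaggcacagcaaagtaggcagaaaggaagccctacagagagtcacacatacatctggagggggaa
Cyp3a41a, chr5:145720087-145720386: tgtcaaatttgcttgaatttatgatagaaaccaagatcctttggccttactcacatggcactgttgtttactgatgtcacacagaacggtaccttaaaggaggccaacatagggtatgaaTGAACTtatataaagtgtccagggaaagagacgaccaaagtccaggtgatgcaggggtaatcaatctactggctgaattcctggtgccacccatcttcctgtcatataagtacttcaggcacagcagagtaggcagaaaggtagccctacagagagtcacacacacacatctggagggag
Cyp3a16, chr5:145469674-145469973: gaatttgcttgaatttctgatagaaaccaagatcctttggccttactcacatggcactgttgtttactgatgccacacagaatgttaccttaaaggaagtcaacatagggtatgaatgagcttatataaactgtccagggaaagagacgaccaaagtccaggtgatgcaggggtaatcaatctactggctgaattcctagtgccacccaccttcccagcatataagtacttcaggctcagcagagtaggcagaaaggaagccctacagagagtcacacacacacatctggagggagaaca
Cyp3a11, chr5:145879805-145880104: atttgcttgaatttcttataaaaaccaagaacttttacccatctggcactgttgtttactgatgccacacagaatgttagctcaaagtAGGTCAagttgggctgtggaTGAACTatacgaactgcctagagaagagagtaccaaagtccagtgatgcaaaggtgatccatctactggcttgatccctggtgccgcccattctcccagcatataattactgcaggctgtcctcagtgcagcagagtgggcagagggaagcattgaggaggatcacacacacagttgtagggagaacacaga
Cyp3a13, chr5:137921570-137921869: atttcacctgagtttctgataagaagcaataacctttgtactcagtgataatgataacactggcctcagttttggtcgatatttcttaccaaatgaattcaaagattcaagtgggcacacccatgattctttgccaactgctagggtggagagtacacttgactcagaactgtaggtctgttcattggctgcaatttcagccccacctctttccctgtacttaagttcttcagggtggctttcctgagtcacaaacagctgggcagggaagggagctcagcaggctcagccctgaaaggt

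In a global alignment the *Cyp3a44* promoter was identical to that of *Cyp3a16* at 95.9% and to that of *Cyp3a41a* at 94.3% of aligned bases, against 79.2% with *Cyp3a11*, 64.6% with *Cyp3a25* and 63.2% with *Cyp3a13*. The *Cyp3a41a* promoter matched that of *Cyp3a41b*, which has no probe here, at 97.3%. The letters AGGTCA were found once in *Cyp3a44* (first base at position -150, the start site being 0) and once in *Cyp3a11* (-162). *Cyp3a25* held them at -176 and -155, and 16.3% of all 32851 RefSeq promoters of this length hold them. AGTTCA was found at -142 in *Cyp3a11* and at -130 in *Cyp3a41a*, and 14% of all promoters hold it. *Cyp3a16* and *Cyp3a13* held neither. The core of the aryl hydrocarbon receptor element, GCGTG, was in 0 of the 6 members' windows (32.4% of all promoters), and the STAT motif TTCNNNGAA was also in 0 of them (8.3% of all). These are matches of letters on both strands in 300 bases, which do not overlap each other, and they show neither a bound site nor its absence elsewhere.

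The dimmer *Cyp3a44* probe gave the values for which the family was chosen. Its log2 ratios in control replicates 1 to 5 were 0.07, 0.50, 0.47, 0.34 and 1.25. At 25 mg/kg/day they were 0.83, 1.01, 0.33, 1.15 and 0.73, which lies within the range of the controls. At 50 mg/kg/day they were 1.14, 1.68, 3.94, 1.82 and 2.32, so that 4 of 5 arrays lay above all controls, with replicate 13 far above the other four. Replicate 13 lay at position 4 of its slide, as did every array of the 75 mg/kg/day group, while the other four lay at position 3, and the part of position in its value was not tested. At 75 mg/kg/day they were 3.22, 4.31, 3.70, 3.44 and 2.26, and all 5 arrays lay above all controls, a separation that 1.52% of all present probes showed in either direction. Against control this made log2 fold changes of 0.28, 1.66 and 2.86 with rising dose (SE 0.40 each, n = 5 per group), the last a fold change of 7.26.

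The brighter *Cyp3a44* probe did not show this order of the groups. In control replicates 1 to 5 its log2 ratios were 6.37, 4.94, 5.41, 4.84 and 6.08. They were 6.15, 5.89, 6.03, 5.76 and 6.02 at 25 mg/kg/day, and 6.42, 5.41, 5.24, 6.23 and 5.92 at 50 mg/kg/day. In the highest dose group they were 6.28, 5.90, 6.22, 5.77 and 6.07, all below control replicate 1 and above control replicates 2, 3 and 4. Its log2 fold changes were 0.44, 0.32 and 0.52 with rising dose (SE 0.26). The SD between arrays was 0.68 in controls, 0.15 at 25, 0.51 at 50 and 0.21 at 75 mg/kg/day (n = 5 each). Slide 6 held control replicates 2 and 3 and replicates 12 and 13 of the 50 mg/kg/day group. The part of slide in the spread was not tested.

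**Figure D1:**
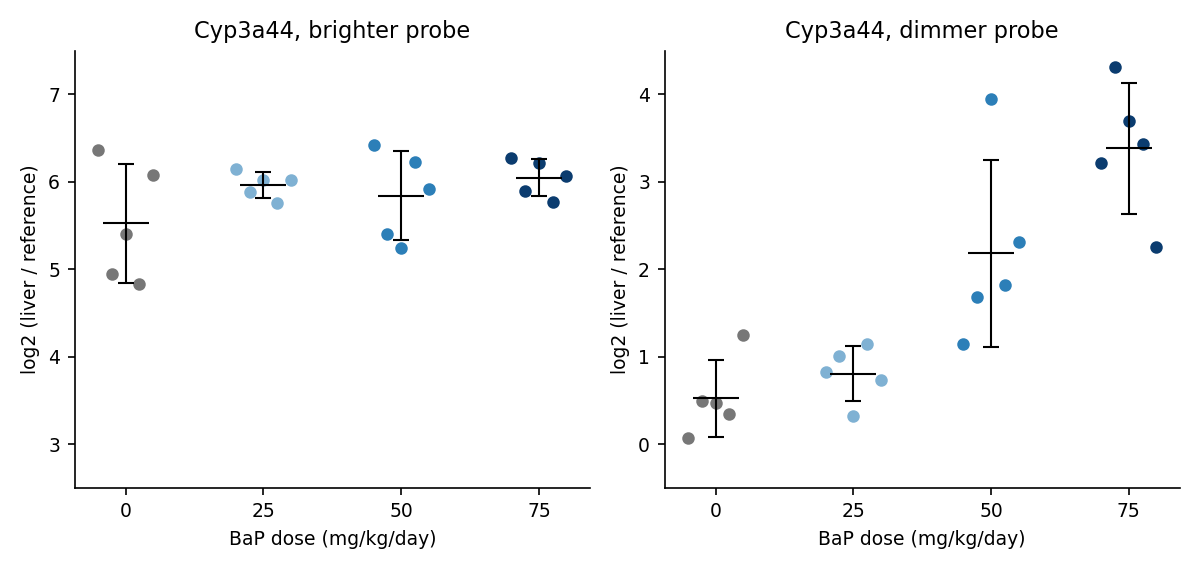
Log2 ratio of liver over reference of the brighter (left) and dimmer (right) Cyp3a44 probe in each array by BaP dose in mg/kg/day, with the mean and SD of 5 arrays as bars; both axes span the same number of log2 units. The dimmer probe goes from a mean of 0.52 in controls to 3.39 at 75 mg/kg/day, and the brighter probe from 5.53 to 6.05.

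Within each array, the dimmer probe minus the brighter probe was -5.00 ± 0.75 in controls, -5.16 ± 0.42 at 25, -3.66 ± 1.48 at 50 and -2.66 ± 0.83 at 75 mg/kg/day (mean ± SD, n = 5 each). From control to 75 mg/kg/day this difference moved by 2.34. In the 5 control arrays it lay between -6.30 and -4.45 and in the 5 arrays at 75 mg/kg/day between -3.81 and -1.59. The *Cyp3a25* probes, which differ in brightness too, gave a dimmer minus brighter value of 0.17 ± 0.44 in controls, -0.13 ± 0.28 at 25, 0.12 ± 0.53 at 50 and -0.34 ± 0.36 at 75 mg/kg/day, with groups that overlap. There it was the brighter probe that had the larger change. On slides 5 and 6 the *Cyp3a25* difference was 0.225 to 0.869, and on the other slides it was at most 0.092. Slides 5 and 6 held control replicates 2 and 3 and, of the 75 mg/kg/day group, only replicate 19. The part of slide in this difference was not tested.

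The intensities behind the dimmer *Cyp3a44* probe were low. Its liver signal before correction was 107, 128, 126, 125 and 162.5 in control replicates 1 to 5, with a median local background of 97. At 75 mg/kg/day it was 386, 940, 608.5, 883.5 and 353 against a median background of 92, that is 3.33 to 11.3 times background, where the controls were at 1.11 to 1.89 times background. The scanner software marked it as well above background in the liver channel in 3 of 5 controls and in 5 of 5 arrays of each exposed group. In the reference channel it was well above background on 0 of 20 arrays (signals between 33 and 56), so its ratio level has a background value as denominator in every group. The ratio level is therefore not a measured abundance relative to the reference RNA. The brighter probe had liver signals of 23280 to 89960 and was well above background in both channels on all 20 arrays. With no spot saturated on any array (0 spots), neither probe was limited at the upper end.

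**Figure D2:**
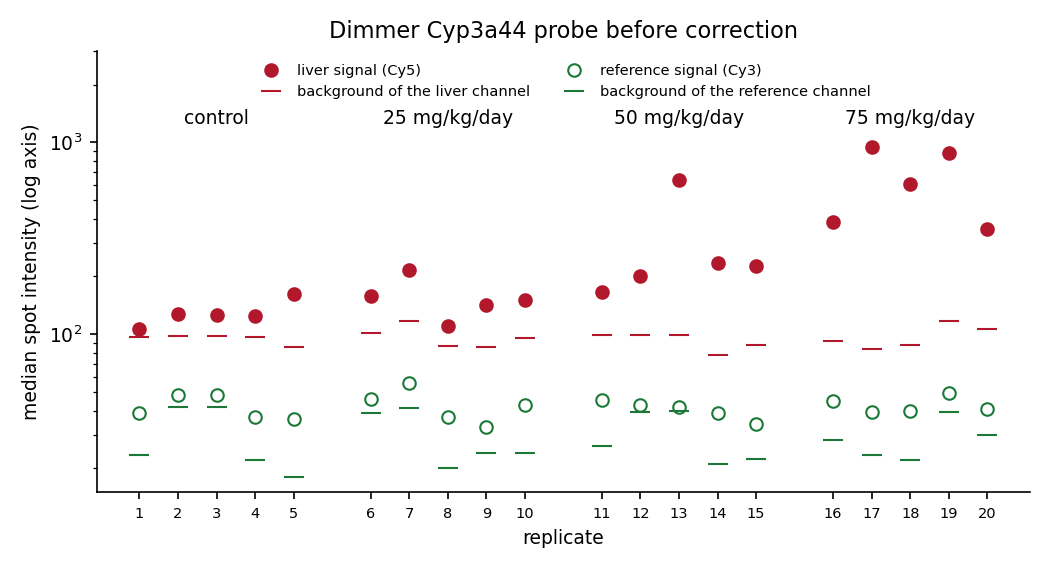
Median spot intensity of the dimmer Cyp3a44 probe on a log axis in each of the 20 arrays, with the liver channel as filled points, the reference channel as open points and their local backgrounds as dashes. Liver signal was 107 to 162.5 in controls, 165.5 to 234 in 4 arrays at 50 mg/kg/day with replicate 13 at 640, and 353 to 940 at 75 mg/kg/day, while the reference signal stayed between 33 and 56.

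Within the 3 slides that held both groups, the 75 mg/kg/day array exceeded the control array by 3.97, 2.45 and 3.15 for the dimmer *Cyp3a44* probe (1 array of each group per slide). For the brighter probe the same differences were 1.07, 0.14 and -0.09. With the liver channel taken alone, normalized by quantiles and without the reference, the 75 mg/kg/day group differed from control by 2.27 for the dimmer and 0.004 for the brighter probe. The size for the dimmer probe depended on how background was treated: it was 4.07 with no offset added after normexp and 4.63 with the signals of the scanner software, against 2.86 with the offset of 50. At 50 mg/kg/day the same settings gave 2.94 and 3.67, against 1.66. At 25 mg/kg/day they gave 0.67 and 1.58, and slide as a block gave 0.62, against 0.28. For the brighter probe slide as a block gave 0.18 at 25 and 0.26 at 75 mg/kg/day, against 0.44 and 0.52.

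**Figure D3:**
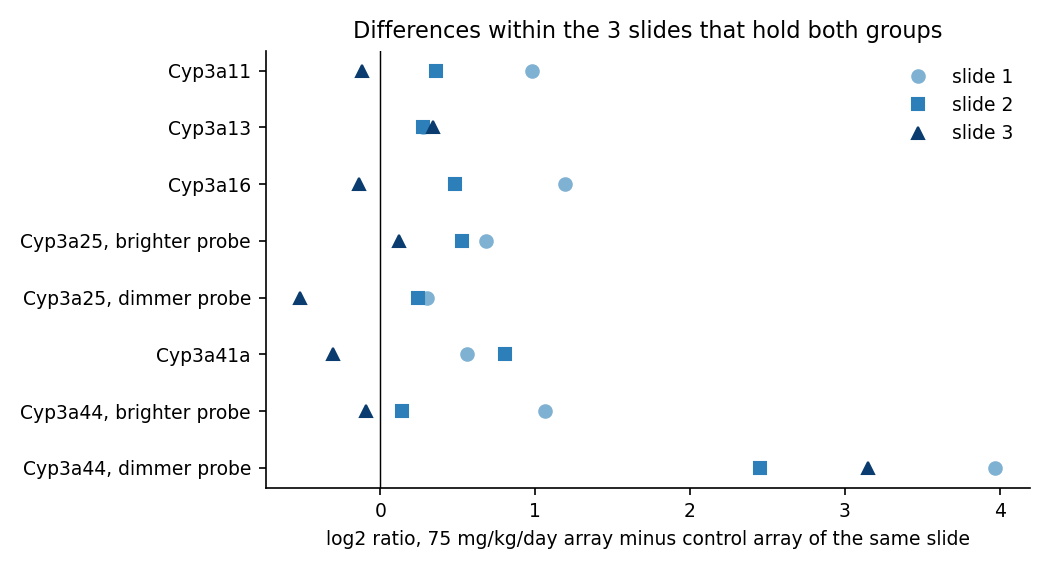
Log2 ratio of the 75 mg/kg/day array minus that of the control array on the same slide for each of the 8 CYP3A probes, for the 3 slides with 1 array of each. Only the dimmer Cyp3a44 probe lies above 2 on every slide (2.45 to 3.97).

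The other 5 genes were tested with 6 probes, and 0 of 6 were called at each of the 3 doses (limma, Benjamini-Hochberg adjusted p under 0.05 and fold change over 1.5). Over all 27346 present probes the shares called were 0%, 0% and 0.135%. The trend with dose was called for 0 of 6 probes (0.157% of all probes). The estimates were positive for 6 of 6 probes at each dose, with medians of 0.39, 0.40 and 0.48 at 25, 50 and 75 mg/kg/day. The medians over all present probes were 0.0009, -0.0032 and 0.0025. The doses share the same control arrays, and several of the probes were correlated between arrays, so these signs are not independent of each other. In the liver channel alone 6, 6 and 3 of 6 estimates were positive with rising dose, with medians of 0.10, 0.18 and -0.05. With slide as a block 6 of 6 were positive at each dose, with medians of 0.255, 0.40 and 0.307. Slide 6 held control replicates 2 and 3 but no array at 25 or 75 mg/kg/day. The part of slide in the estimates was not tested further. An unadjusted p under 0.05 was reached by 1 of 6 probes at 25 mg/kg/day (7.81% of all probes), 2 of 6 at 50 (6.7%) and 4 of 6 at 75 mg/kg/day (11.2%). In 0 of 6 probes did all exposed arrays lie on 1 side of all controls at any dose, against 1.21%, 0.815% and 1.52% of all probes. With 5 arrays per group, the model left intervals of about a log2 unit in width for most members, so a change of the size of these estimates could be neither called nor set aside.

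**Figure D4:**
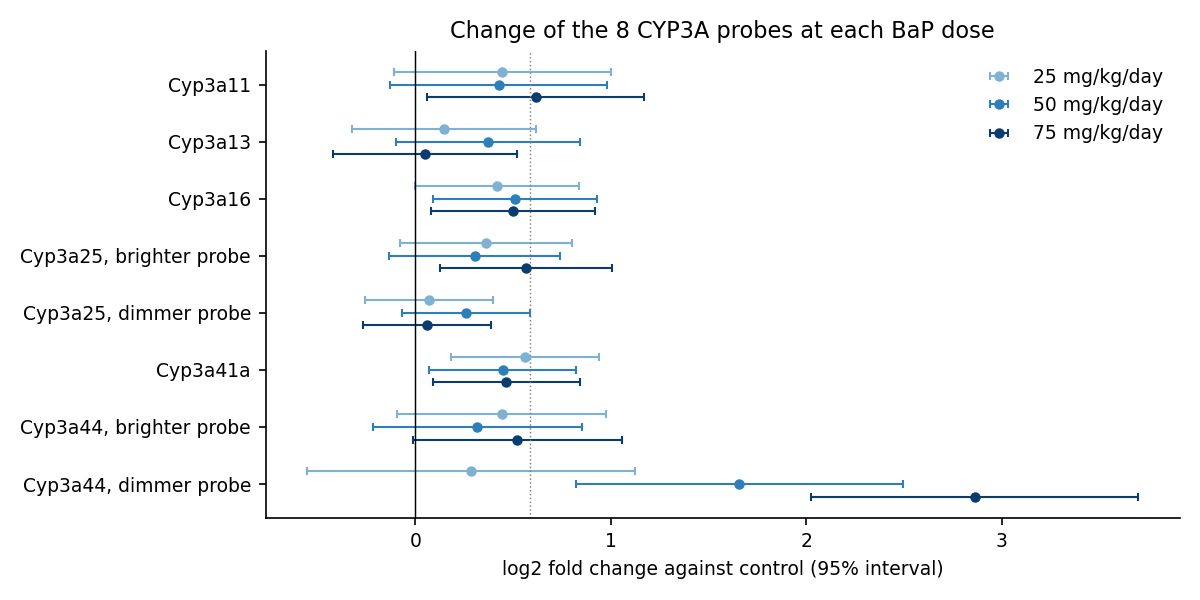
Log2 fold change against control of the 8 CYP3A probes at 25, 50 and 75 mg/kg/day with 95% intervals from the limma model of all 20 arrays; the solid line marks 0 and the dotted line a 1.5-fold change. The dimmer Cyp3a44 probe reaches 2.86 at 75 mg/kg/day, and the estimates of the other 7 probes lie between 0.05 and 0.62. The intervals of the 2 Cyp3a44 probes are a description and not a test, since their dose changes chose the family.

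*Cyp3a41a*, a female-predominant form in adult mice, had log2 ratios of 9.87, 8.86, 8.92, 8.81 and 8.78 in control replicates 1 to 5. They were 9.82, 9.62, 9.80, 9.49 and 9.33 at 25, 9.64, 9.23, 9.10, 9.73 and 9.78 at 50, and 9.56, 9.37, 9.59, 9.66 and 9.39 at 75 mg/kg/day. Every exposed array lay above control replicates 2 to 5 and below control replicate 1. The log2 fold changes were 0.56 at 25, 0.45 at 50 and 0.47 at 75 mg/kg/day (SE 0.18), with limma adjusted p = 0.636, 0.707 and 0.343. Without control replicate 1 the change at 75 mg/kg/day was 0.67 and was called (adjusted p = 0.0475 from limma), the only call among the 6 tested probes when each array was left out in turn. With all arrays and the liver channel alone, the change at 75 mg/kg/day was 0.055. Within the 3 slides that held both groups, the change at 75 mg/kg/day was 0.56, 0.81 and -0.31, the last on the slide of control replicate 1.

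*Cyp3a16*, a form best known from fetal and young liver, had log2 ratios of 8.68, 7.76, 7.83, 6.96 and 7.94 in control replicates 1 to 5. The exposed arrays ranged from 8.13 to 8.52 at 25, from 8.11 to 8.60 at 50 and from 8.16 to 8.54 at 75 mg/kg/day. They were thus above control replicates 2 to 5 and below replicate 1, as for *Cyp3a41a*. Its log2 fold change in the highest dose group was 0.50 (SE 0.20, limma adjusted p = 0.361). It was 0.013 in the liver channel alone and ran from 0.28 to 0.71 when single arrays were left out.

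*Cyp3a11*, the main CYP3A enzyme of adult mouse liver, had log2 ratios of 6.11, 4.57, 4.97, 4.53 and 5.43 in the controls and of 6.00, 5.50, 5.79, 5.55 and 5.84 at 75 mg/kg/day, so that the groups overlapped. Its log2 fold changes were 0.44, 0.43 and 0.62 with rising dose (SE 0.27), and the 95% interval at 75 mg/kg/day ran from 0.06 to 1.17 (limma adjusted p = 0.392). The SD between arrays was 0.66 in controls, 0.32 at 25, 0.52 at 50 and 0.21 at 75 mg/kg/day. In the liver channel alone the estimate at 75 mg/kg/day was -0.18.

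*Cyp3a25*, a further form of adult liver, gave different estimates with its 2 probes, both well above background in the liver on all 20 arrays. In the reference channel the dimmer probe was well above background on 19 of 20 arrays. Its median reference signal was 81.5 against a median background of 27, so its ratios have a low denominator. With the brighter probe the log2 ratios were 7.76, 6.57, 6.86, 7.06 and 7.37 in controls and 7.88, 7.74, 7.90, 7.35 and 7.58 at 75 mg/kg/day. With the dimmer probe they were 7.85, 7.41, 7.14, 6.71 and 7.33 in controls and 7.33, 7.02, 7.57, 7.58 and 7.24 at 75 mg/kg/day. In the highest dose group the log2 fold change was 0.57 (SE 0.21, limma adjusted p = 0.325) with the brighter and 0.06 (SE 0.16, limma adjusted p = 0.925) with the dimmer probe. At 25 mg/kg/day the estimates were 0.36 and 0.07, and at 50 mg/kg/day 0.30 and 0.26. Neither probe was called at any dose.

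*Cyp3a13*, the member that lies outside the cluster, was even in controls (5.29 to 5.52, SD 0.09, n = 5). At 25 mg/kg/day replicate 8 stood at 6.17 and the other four arrays between 5.35 and 5.46. At 50 mg/kg/day replicates 13 and 14 were at 6.26 and 6.61 and the other three between 5.23 and 5.53. At 75 mg/kg/day 3 arrays lay above and 2 below all controls. The log2 fold changes were 0.15, 0.37 and 0.05 with rising dose (SE 0.23), with limma adjusted p from 0.781 to 0.961.

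The probes of *Cyp3a11*, *Cyp3a16* and *Cyp3a41a* and the brighter probes of *Cyp3a25* and *Cyp3a44* were correlated from array to array. Over the 20 arrays, which all share the reference RNA, Pearson's r between *Cyp3a11* and the brighter *Cyp3a44* probe was 0.95 (0.94 with group means removed). Between *Cyp3a11* and the brighter *Cyp3a25* probe it was 0.91. With group means removed, r with the brighter *Cyp3a44* probe was 0.82 for *Cyp3a16* and 0.67 for *Cyp3a41a*, and 0.14 for *Cyp3a13*. For the dimmer *Cyp3a25* probe, on the same measure, r was 0.67 with *Cyp3a16*, 0.53 with *Cyp3a41a*, 0.40 with the brighter *Cyp3a44* probe, 0.36 with *Cyp3a11* and 0.14 with the brighter *Cyp3a25* probe. The dimmer *Cyp3a44* probe had an r between -0.44 and 0.26 with the other 7 probes on the same measure. These correlations are descriptions of the same 20 arrays, for which no test was made. Slide means were not removed from them, and the part of slide in them was not tested.

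Whether probes of the same gene deviated together was tested on deviations from the group means, which do not enter the dose changes. For *Cyp3a44* Pearson's r was -0.33 (permutation p = 0.216, adjusted over the 2 genes 0.432) and Spearman's rho -0.25 (permutation p = 0.34, adjusted 0.679). For *Cyp3a25* r was 0.14 (permutation p = 0.685, adjusted 0.685) and rho 0.02 (permutation p = 0.94, adjusted 0.94). Without the 2 arrays farthest from the median, r was -0.36 for *Cyp3a44* and -0.07 for *Cyp3a25*. In the liver channel alone, without the reference, r was 0.57 for *Cyp3a44* (permutation p = 0.0609, adjusted 0.0609), of which 0.20 was left without the 2 farthest arrays. On the same basis it was 0.52 for *Cyp3a25* (permutation p = 0.0158, adjusted 0.0316), and 0.49 without them. An adjusted permutation p under 0.05 was thus reached only for *Cyp3a25* and only in the liver channel, among the settings tried. For *Cyp3a44* no conclusion is drawn. Its dimmer probe was at 1.11 to 1.89 times liver background in controls and 1.28 to 1.85 times at 25 mg/kg/day. It was at 1.68 to 6.46 times at 50 and 3.33 to 11.3 times at 75 mg/kg/day. Its reference channel was at background on every array. The part of low signal in this agreement was not tested. With slide means removed, r was 0.11 for *Cyp3a44* and 0.44 for *Cyp3a25*, with permutation p adjusted over the 2 genes of 0.642 and 0.327.

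Genes that mark hepatocytes, such as those of albumin and transthyretin, had positive estimates too. The estimate at 75 mg/kg/day was positive for 8 of 8 hepatocyte markers, with a median of 0.40. Called were 0 of 8, beside 0.135% of all present probes. In the liver channel alone 3 of 8 were positive (median -0.05). On single arrays the mean log2 ratio of these 8 markers ranged from 4.20 to 5.53 in controls, 4.98 to 5.52 at 25, 4.97 to 5.45 at 50 and 5.00 to 5.50 at 75 mg/kg/day. Its highest value was in control replicate 1 and its lowest in control replicate 4, the same controls that were highest and lowest for *Cyp3a11*, *Cyp3a16* and the brighter *Cyp3a44* probe. Of 6 endothelial markers 6 were also positive at 75 mg/kg/day (median 0.44). Called was 1 of 6, a probe of *Lyve1* at 2.23 (limma adjusted p = 0.0189). Another *Lyve1* probe stood at 0.56 and was not called (limma adjusted p = 0.0771), though it was called in some other settings. Of 6 Kupffer cell markers 6 were positive (median 0.10) and 1 was called, the scavenger receptor *Marco* at 2.19 (limma adjusted p = 0.00148). Of 5 bile duct markers 2 were positive (median -0.17).

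With the mean of the hepatocyte markers on each array added to the model, an alternative chosen after seeing the data, the estimate in the highest dose group was 0.13 for *Cyp3a11* (SE 0.21, limma adjusted p = 0.943), 0.07 for *Cyp3a16* (SE 0.13, limma adjusted p = 0.943) and 0.16 for *Cyp3a41a* (SE 0.16, limma adjusted p = 0.888). The brighter *Cyp3a25* probe stood at 0.33 and the brighter *Cyp3a44* probe at 0.06. The dimmer *Cyp3a25* probe stood at -0.23, where it was 0.06 without the markers. The dimmer *Cyp3a44* probe stood at 3.18, where it was 2.86 without the markers. The part of these markers in the estimates was not tested further.

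**Figure D5:**
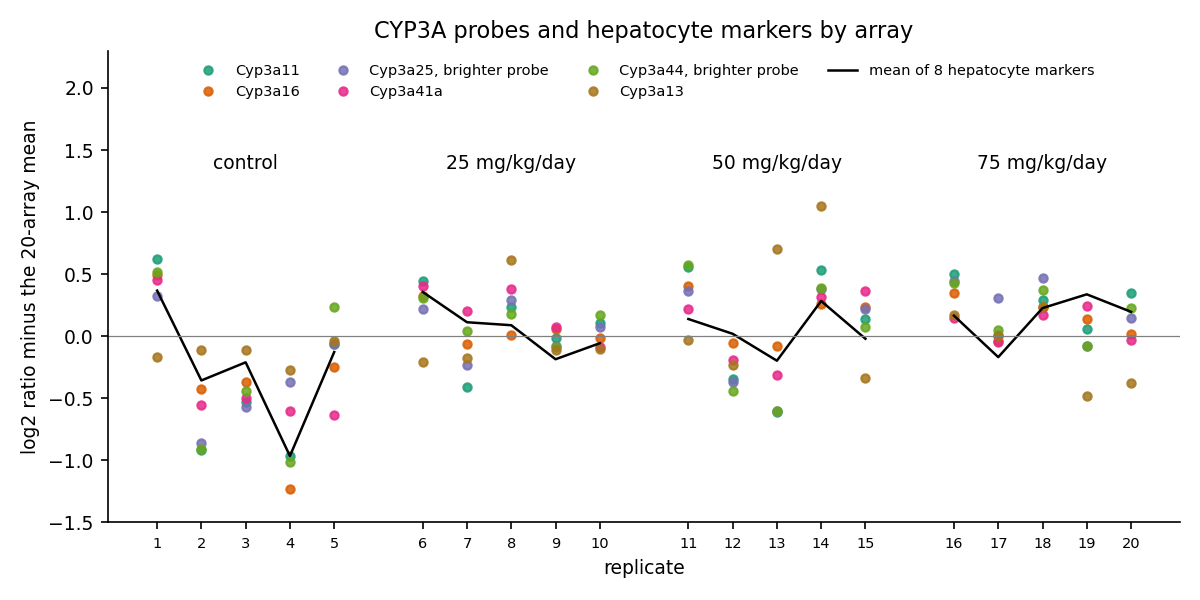
Log2 ratio minus its mean over the 20 arrays for 6 CYP3A probes (points) and for the mean of 8 hepatocyte markers (line) in each array, by dose group. Control replicates 1 and 4 hold the highest and lowest mean of the markers (5.53 and 4.20 before centring), and most CYP3A points follow the line except those of Cyp3a13.

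Of 16 regulators and partners of CYP3A tested, 0 were called at any dose. They include PXR, CAR, their partner *Rxra*, P450 oxidoreductase and cytochrome b5. Over all present probes the shares called were 0%, 0% and 0.135% with rising dose, so lists of this size were likely to hold no call. At 75 mg/kg/day 13 of the 16 regulators and partners were positive (median 0.14), a count that was 7 of 16 in the liver channel alone. The largest estimates at 75 mg/kg/day were those of *Alas1*, the first enzyme of heme synthesis (0.61, SE 0.45, limma adjusted p = 0.645), *Cebpb*, a liver transcription factor (-0.37, SE 0.21, limma adjusted p = 0.525), and *Por*, which encodes P450 oxidoreductase (0.32, SE 0.21, limma adjusted p = 0.577). Among known PXR and CAR targets outside the family, 0 of 21 were called at any dose, beside the same shares over all probes. At 75 mg/kg/day 19 of 21 were positive (median 0.36), against 16 of 21 in the liver channel alone. *Cyp2b10*, the classical CAR target, stood at 0.70 (SE 0.43, limma adjusted p = 0.551), the uptake transporter gene *Slco1a4* at 0.67 (SE 0.33, limma adjusted p = 0.453) and the sulfotransferase gene *Sult1d1* at 0.59 (SE 0.31, limma adjusted p = 0.495).

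Genes with a known sex bias in mouse liver were set beside the family because several CYP3A forms share it. Of 13 female-biased genes tested outside the family 0 were called at any dose (0%, 0% and 0.135% of all present probes with rising dose). At 75 mg/kg/day 12 were positive (median 0.48), and also 12 of 13 in the liver channel alone (median 0.30). The P450 genes *Cyp2b13* (1.44, SE 0.40, limma adjusted p = 0.19) and *Cyp2b9* (1.08, SE 0.23, limma adjusted p = 0.0715) were among its 3 largest estimates. *Cyp2b9* was called in 4 other settings, without control replicate 1, without replicate 19 of the 75 mg/kg/day group, with slide as a random block and with array weights (adjusted p from 0.00403 to 0.0473 from limma). Over the other settings its adjusted p reached 0.838. Of 16 male-biased genes 0 were called at any dose and 15 were positive at 75 mg/kg/day (median 0.34), with the largest estimates for *Mup1* (0.60), *Cyp7b1* (0.48) and *Hsd3b5* (0.48). In the liver channel alone 5 of the 16 male-biased genes were positive (median -0.10), beside 3 of 8 hepatocyte markers. In that setting 16 of 21 PXR and CAR targets (median 0.20) and 6 of 6 endothelial markers (median 0.415) were positive, so this was not particular to the female-biased genes. The lists also differ in brightness: the lowest mean log2 intensity was 6.13 among the female-biased and 8.49 among the male-biased probes. Whether the lists differ was not tested.

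The probes most like each *Cyp3a44* probe over the 20 arrays were not the same. For the brighter probe they were those of *Cyp2d10* (Pearson's r = 0.97), *Ugt2b36* (0.96), *Cyp2d9* with 2 probes (0.96 each) and *Cyp7b1* (0.96), liver genes of oxidation and conjugation whose log2 fold changes in the highest dose group were 0.33 to 0.52. For the dimmer probe they were those of *Nqo1*, a quinone reductase (0.86), *Endou*, an endoribonuclease (0.84), *Lyve1*, a hyaluronan receptor of sinusoidal endothelium (0.83), *Btg2*, a p53 target (0.82), and *Cyp17a1*, a steroid hydroxylase (0.81). Their log2 fold changes in the highest dose group were 0.68, 1.16, 0.56, 0.55 and 0.54. This *Lyve1* probe is not the one called among the endothelial markers, and its value ran from 0.45 to 3.40 over the settings tried. These are descriptions with no test, since the probes were chosen for likeness to a probe picked for its dose change. The likeness was read over arrays that include the dose groups which chose the dimmer probe, and it says nothing of shared control.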

How the data were processed

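Spot brightness was deposited by the authors as median intensity, on a linear scale and without normalization, in the liver and reference channels, beside intensities that the scanner software (Feature Extraction 10.1.1.1, per the file headers) had background subtracted and dye normalized. The authors also deposited log2 ratios of liver over reference, to which they had applied LOWESS array by array. Here, median intensities were background corrected (normexp, with 50 added as offset) and loess normalized array by array, and repeated spots of a probe were averaged, with R 4.3.3 and limma 3.58.1. The resulting log2 ratios correlated with the deposited ones at r between 0.9937 and 0.9959 across probes, which are not independent replicates.

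Presence required a liver signal more than 3 SDs over the mean of the 153 negative controls (both trimmed by 5%) on 4 or more of the 5 arrays in any group. Each dose was set against control in 1 limma model of the 20 arrays (two-sided, Benjamini-Hochberg over 27346 probes), tested on simulated data. Dose was also fitted as a number. Agreement of probes was tested by 100000 permutations within groups (two-sided). Promoters came from RefSeq and were aligned with Biopython 1.88.

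Named were all member probes, list genes called or with the 3 largest changes at 75 mg/kg/day and the 5 probes most correlated with each *Cyp3a44* probe. The values of 1 list gene under this rule are not reported here. The members and lists were chosen with earlier results of these data known. Alternatives changed background correction, normalization, filters, slide, weights and the arrays used. The series text gives a slightly different lowest dose from the sample labels, whose value was used. The study left out 1 array without naming it. Here all 20 entered. The number of arrays limits the precision (median SD within a group 0.22, log2).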

Additional observations from a re-analysis of the deposited data

Results flagged for a closer look

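Of 32 groups of 5 arrays tested (8 probes in 4 groups), 2 held an array far from the others by Dixon's test at its 95% level, and chance flags about 1 in 20 groups. *Cyp3a13* stood at a log2 ratio of 6.17 in replicate 8 of the 25 mg/kg/day group, where the nearest other array was at 5.46. *Cyp3a41a* stood at 9.87 in control replicate 1, where the nearest other control was at 8.92.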

How the results depend on the processing

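No tested CYP3A probe was called at any dose or in the trend under any of the other settings (0 in each), except that leaving out single arrays gave between 0 and 1 call at 75 mg/kg/day, the 1 call being *Cyp3a41a* without control replicate 1. The change of the dimmer minus the brighter *Cyp3a44* probe at 75 mg/kg/day, 2.34, was 3.54 with normexp offset 0 and 4.13 with the processed signals of the scanner software. It ran from 2.02 to 2.63 when single arrays were left out. The agreement of the *Cyp3a44* probes turned from -0.33 to 0.11 with slide means removed and to 0.57 in the liver channel alone. That of the *Cyp3a25* probes turned from 0.14 to -0.25 with processed signals and to 0.52 in the liver channel.

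Some small estimates changed sign. The dimmer *Cyp3a25* probe at 25 mg/kg/day stood at -0.024 with offset 0, -0.094 with processed signals and -0.15 with the hepatocyte marker mean as a covariate, and at 75 mg/kg/day at -0.18 in the liver channel and -0.23 with that covariate. *Cyp3a13* at 75 mg/kg/day stood at -0.032 with processed signals and -0.12 in the liver channel. In the liver channel *Cyp3a11* stood at -0.18, *Cyp2d9* at -0.19 and -0.16, *Cyp7b1* at -0.20, *Mup1* at -0.066 and *Hsd3b5* at -0.26 at 75 mg/kg/day. With the covariate *Cyp2d10* stood at -0.022 and *Mup1* at -0.01. Leaving out single arrays gave -0.075 to 0.21 (25 mg/kg/day) and -0.085 to 0.20 (75 mg/kg/day) for the dimmer *Cyp3a25* probe and -0.007 to 0.20 (25 mg/kg/day) and -0.032 to 0.15 (75 mg/kg/day) for *Cyp3a13*. The cause was not tested. The groups share no replicate numbers, and slide was used as the block in their place. Low signal limits the dimmer *Cyp3a44* probe, whose reference channel was at background.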
